A study of Homo sapiens with 4 samples.

Results

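The cytosolic heat shock chaperones of MDA MB 134VI cells were followed as 10 listed genes: HSPA1A, HSPA1B, HSPA8, HSPH1, HSP90AA1, HSP90AB1, DNAJB1, DNAJA1, HSPD1 and HSPE1. All 10 were present among the 33538 rows of the expression matrix that carry a plain gene symbol, called all-gene rows here. HSPA1A and DNAJB1, 2 of the 10, were also present among the 1253 rows marked as targeted, which are the genes of the 10x Pan-Cancer capture panel and are called panel rows. The name fits 8 of the 10 genes, since HSPD1 and HSPE1 encode HSP60 and HSP10, the chaperonin of the mitochondrial matrix. MDA MB 134VI (MM134) is an established line of invasive lobular breast carcinoma that carries the estrogen receptor, with the genotype given as WT. Both groups were deprived of hormone in phenol red-free medium with charcoal-stripped serum. The vehicle group then received 0.01% ethanol and the other group 100 nM estradiol, each for 24 hours, before the cells were dissociated with trypsin and captured as single cells. Each treatment had 1 mRNA library, and 2 further libraries of DNA repair activity were not used here.

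Heat shock chaperones hold unfolded proteins, fold them or pass them on. Hsp70 proteins bind exposed hydrophobic stretches in a cycle driven by ATP, J-domain proteins such as DNAJB1 and DNAJA1 deliver clients and start ATP hydrolysis, and Hsp110 proteins such as HSPH1 release the nucleotide. Hsp90 proteins take over partly folded clients, among them steroid receptors such as the estrogen receptor, with the help of co-chaperones. Heat shock factor 1 (HSF1) drives the stress-inducible genes of this family through heat shock elements, which are inverted repeats of the unit GAA, while HSPA8 and HSP90AB1 are known as the constitutive forms.

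The stretches before the start sites are shown because the 10 genes are known for a shared regulator and because 9 of them had a ratio on the same side of 1 below. They were taken from RefSeq on GRCh38.p14, where all 10 genes matched by symbol, and capitals mark letters that match GAANNTTC, TTCNNGAA or GAANNTTCNNGAA on either strand, which are overlapping motifs of 2 or 3 heat shock units. HSPA1A (chr6:31815293-31815542, plus strand) and HSPA1B (chr6:31827488-31827737, plus strand) each have 250 bases shown up to the start of the gene.
HSPA1A: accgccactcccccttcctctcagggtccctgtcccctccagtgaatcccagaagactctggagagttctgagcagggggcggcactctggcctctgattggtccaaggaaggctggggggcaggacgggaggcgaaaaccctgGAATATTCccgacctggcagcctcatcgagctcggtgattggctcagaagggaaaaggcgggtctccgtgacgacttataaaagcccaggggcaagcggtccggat
HSPA1B: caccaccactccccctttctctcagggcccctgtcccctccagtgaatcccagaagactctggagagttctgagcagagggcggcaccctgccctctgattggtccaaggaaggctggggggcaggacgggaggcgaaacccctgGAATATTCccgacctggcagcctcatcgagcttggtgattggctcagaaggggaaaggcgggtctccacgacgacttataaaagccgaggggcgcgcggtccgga
These stretches were identical at 235 of 251 aligned columns, or 93.6%. In both, the matched letters start a little over 100 bases before the gene, and the letters TATAAA lie at positions -30 to -25 in HSPA1A and at -29 to -24 in HSPA1B, counted from the first transcribed base. For the other genes with a match, 30 bases are shown around it on the strand of the gene, except for a further GAANNTTC at positions 2 to 9 of another DNAJB1 start.
HSPA8 from -230 to -218: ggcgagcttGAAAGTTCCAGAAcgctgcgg
HSPA8 from -55 to -43: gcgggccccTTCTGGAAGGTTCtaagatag
HSP90AA1 from -88 to -61: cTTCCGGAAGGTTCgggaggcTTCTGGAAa
HSP90AB1 from -165 to -153: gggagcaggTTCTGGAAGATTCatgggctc
HSP90AB1 from -112 to -100: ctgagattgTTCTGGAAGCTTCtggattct
DNAJB1 from -77 to -70: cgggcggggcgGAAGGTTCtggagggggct
DNAJB1 from -47 to -40: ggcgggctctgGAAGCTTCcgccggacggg
DNAJA1 from -198 to -191: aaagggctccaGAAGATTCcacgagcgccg
DNAJA1 from 4 to 16: cgccgggcgGAACTTTCCAGAAcgctcggt
HSPD1 from -245 to -228: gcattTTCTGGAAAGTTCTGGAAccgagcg
These lie at chr11:123062346-123062375 and chr11:123062171-123062200 (HSPA8, minus strand), chr14:102087104-102087133 (HSP90AA1, minus), chr6:44247769-44247798 and chr6:44247822-44247851 (HSP90AB1, plus), chr19:14518456-14518485 and chr19:14518426-14518455 (DNAJB1, minus), chr9:33025064-33025093 and chr9:33025267-33025296 (DNAJA1, plus) and chr2:197500061-197500090 (HSPD1, minus). Positions are counted from the start of the RefSeq transcript whose window held the match, and HSP90AA1, HSP90AB1, DNAJB1 and HSPD1 have more than 1 such start. HSPD1 and HSPE1 face away from each other across a short shared stretch of 104 bases between their outermost starts (chr2:197500275-197500378, shown on the plus strand, in which no motif was matched).
HSPE1 and HSPD1: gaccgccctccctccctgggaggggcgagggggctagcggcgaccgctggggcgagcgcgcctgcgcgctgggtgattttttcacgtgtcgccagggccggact
Over windows of 300 bases around each annotated start, the motif of 3 units, GAANNTTCNNGAA, was found in 5 of the 10 genes (HSPA8, HSP90AA1, HSP90AB1, DNAJA1 and HSPD1) and in 0.608% of all 27305 genes with a window. The motif of 2 units, GAANNTTC, was found in 8 of the 10 and in 8.21% of all genes. HSPH1 and HSPE1 had no match to these motifs in their windows. The stretch with the HSPD1 match, chr2:197500061-197500090, ends shortly before the HSPE1 window, which begins at chr2:197500129. It lies before an inner HSPD1 start but after the outermost one, so the windows do not show that HSPE1 lacks this element nearby. The estrogen response element GGTCANNNTGACC was found in 0 of the 10 and in 0.0732% of all genes. With so low a share over all genes, 0 of 10 says little about these genes. Such matches describe letters and not binding, and genes with several starts had more windows to match in.

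The vehicle library held 4940 cells with 6918198 UMIs (unique molecular identifiers, each counting 1 captured transcript) in the all-gene rows and 14080930 in the panel rows. The estradiol library held 3367 cells with 5937422 and 10352943 UMIs. Median UMIs per cell in the all-gene rows were 1199 and 1561, and the median mitochondrial percent was 7.66% and 7.62%. G1, S and G2M calls made up 50.5%, 15.6% and 33.9% of the vehicle cells and 34.5%, 29.0% and 36.4% of the estradiol cells. The libraries shared 4 cell barcodes. All 9 luminal markers on a marker list had at least 50 UMIs over both libraries, 5 of 7 immune and 2 of 4 endothelial markers were at 0 in the all-gene rows, and each of the others was seen in at most 1 cell of a library. Of 7 basal or myoepithelial markers 5 were at 0. Of 9 mesenchymal markers 5 were at 0 and 4 were measured. Their ratios of estradiol to vehicle were 0.752 for VIM and 0.657 for TWIST1. COL1A1 was at 0.809 (0.639 to 1.02) and FN1 at 0.910 (0.746 to 1.11), and both intervals span 1. This left 0 of 4 above 1, where 45.6% of all measured genes were. The panel rows gave 0.714 (0.683 to 0.747) for COL1A1 and 0.856 (0.815 to 0.898) for FN1. Luminal markers had 5 of 9 above 1 in the all-gene rows and 0 of 6 in the panel rows, where 36.7% of genes were. The summed level of the mesenchymal list was 248 CPM with vehicle and 191 with estradiol. The part of this list in the results below was not tested. With 1 library per treatment there is no replicate error and no test. Levels below are UMIs of a gene per 1000000 UMIs (CPM), from the summed UMIs of a library or of a set of its cells, and each 95% interval (exact, Poisson for levels and binomial for ratios and shares) covers counting error only and treats UMIs as independent. CPM are shares of the captured RNA, and no level is compared between genes, since capture per gene is not known.

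Estradiol-treated cells held a larger share of chaperone transcripts. The 10 genes together took 1.22% (1.21 to 1.23) of all-gene UMIs in the vehicle library and 1.496% (1.486 to 1.505) in the estradiol library. The ratio of estradiol to vehicle was above 1 for 9 of the 10 genes, where 45.6% of the 10977 genes with at least 50 UMIs had such a ratio. It was at least 1.5-fold with an interval above 1 for 1 of the 10, HSPD1, where 3.4% of genes were that high, and for no member was it 1.5-fold lower, where 5.74% of genes were. The median log2 ratio was 0.28 over the 10 genes and -0.03 over all genes measured.

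Among the Hsp70 genes, HSPA1A, the major stress-inducible Hsp70, was at 462 CPM with vehicle and 562 with estradiol in the all-gene rows. In the panel rows, with far more UMIs, it was at 5898 (5858 to 5938) and 7449 (7396 to 7502) CPM. The estradiol library was higher in both kinds of row, by 1.22-fold (1.16 to 1.28) and 1.26-fold (1.25 to 1.28). HSPA1B encodes nearly the same protein from a neighbouring gene, so reads of the pair can be hard to assign, and the sources used here do not say how they were assigned. HSPA1B was at 68.2 and 74.3 CPM, a ratio of 1.09 whose interval of 0.954 to 1.24 spans 1. HSPA8, the constitutive Hsc70, was at 366 CPM (351 to 380.1) and 494 CPM (477 to 513). Its ratio of 1.35 (1.28 to 1.43) was the second highest of the 10, after HSPD1. HSPH1, an Hsp110 exchange factor, was at 247 and 305 CPM, 1.23-fold higher (1.16 to 1.32) with estradiol.

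Both Hsp90 genes were higher with estradiol by nearly the same factor. HSP90AA1, the inducible Hsp90 alpha, was at 5988 CPM (5930.4 to 6046) with vehicle and 7196 CPM (7127 to 7264) with estradiol, a ratio of 1.20 (1.19 to 1.22). HSP90AB1, the constitutive Hsp90 beta, was at 3275 CPM (3233 to 3318) and 3945 CPM (3895 to 3996), also a ratio of 1.20 (1.18 to 1.23). HSP90AA1 accordingly made up 64.6% of the UMIs of the pair in each library. The pair supplied 75.8% of the UMIs of the 10 genes with vehicle and 74.5% with estradiol, so summed values mostly follow these genes.

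The J-domain partners stood apart from each other. DNAJA1, which works with Hsp70 in the cytosol, was at 590.2 CPM with vehicle and 728 with estradiol, 1.23-fold higher (1.18 to 1.29). DNAJB1, the main inducible Hsp40, was at 124 and 120.1 CPM, a ratio of 0.965 with an interval of 0.873 to 1.07. The panel rows gave 1616 (1595 to 1638) and 1626 (1602 to 1651) CPM for DNAJB1, a ratio of 1.01 (0.986 to 1.03). The DNAJB1 interval spans 1 in both kinds of row, as does that of HSPA1B in the all-gene rows. In the panel rows 36.7% of 940 genes had a ratio above 1, 2.98% were at least 1.5-fold higher and 11.7% at least 1.5-fold lower, none of the 2 members among them, and the median log2 ratio of all genes was -0.11. Panel libraries depend on the scaling: with a median-of-ratios size factor 48.7% of panel genes were above 1, the genes at least 1.5-fold apart were 49 higher and 78 lower in place of 28 and 110, and DNAJB1 stood at 1.08 and HSPA1A at 1.35.

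The mitochondrial chaperonin pair did not keep its proportion. HSPD1 was at 666 CPM (647 to 685) with vehicle and 1006.5 CPM (981 to 1032) with estradiol. Its ratio of 1.51 (1.45 to 1.57) was above that of 96.4% of measured genes. HSPE1, its partner, was at 440.3 CPM (425 to 456) and 524 CPM (506 to 543), a ratio of 1.19 (1.13 to 1.25). HSPE1 supplied 39.8% (38.7 to 40.9) of the UMIs of the pair with vehicle and 34.3% (33.3 to 35.2) with estradiol. The fixed threshold falls close to HSPD1, which stood at 1.498-fold when the 10 most abundant genes were left out of the total.

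**Figure D1:**
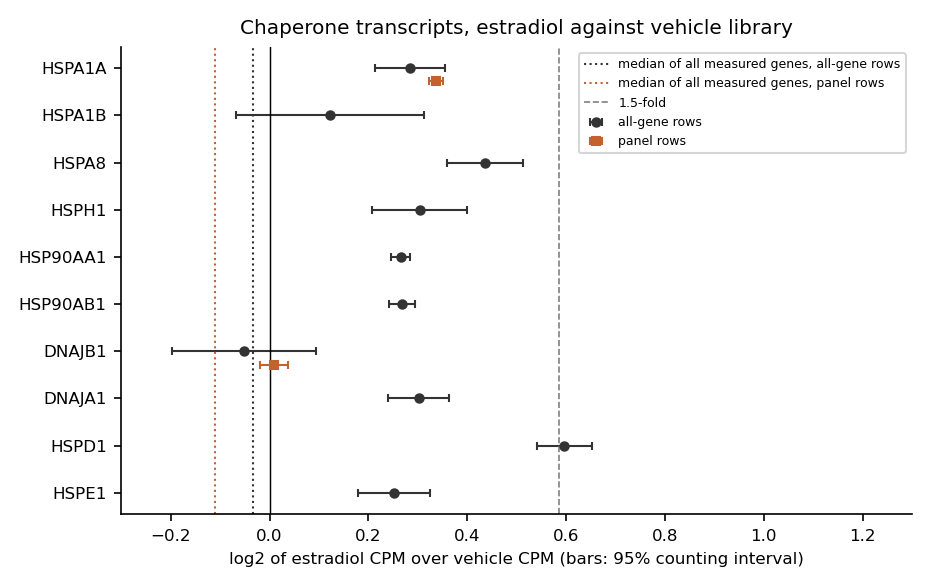
Log2 of the estradiol level over the vehicle level for each of the 10 genes, with 95% counting intervals. Circles are all-gene rows and squares panel rows, dotted lines mark the median of all measured genes, and the dashed line marks 1.5-fold. HSPD1 lies farthest right at 0.60 and DNAJB1 lies at -0.05 and 0.01.

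Shares of cells with at least 1 UMI followed the levels. Cells differ in depth, so each was also thinned to 800 all-gene UMIs, which left out 951 vehicle and 139 estradiol cells. HSPD1 was seen in 55.4% of vehicle and 77.8% of estradiol cells as deposited, and in 40.7% (39.1 to 42.2) and 53.9% (52.2 to 55.7) after thinning. HSPA1A was seen in 30.1% and 37.8% of thinned cells, HSPA8 in 25.2% and 31.9%, and DNAJA1 in 36.6% and 45.3%. DNAJB1 in these rows was seen in 14.9% and 17.8% of cells as deposited but in 9.15% (8.27 to 10.1) and 8.74% (7.78 to 9.76) of thinned cells. In the all-gene rows its higher share with estradiol was thus present only at unequal depth. In the panel rows, thinned to 800 panel UMIs, DNAJB1 was seen in 66.8% (65.5 to 68.2) of vehicle and 68.4% (66.8 to 69.9) of estradiol cells, with overlapping intervals. In the thinned all-gene rows, 9 of the 10 genes had the higher share in the estradiol library. That count was not made over all genes, so it cannot be set against them. All cells are of 1 line, so no cell type that lacks these genes gives a background share for free RNA.

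Levels also varied between the cells of a library, as could be read for the members with most UMIs. In the panel rows HSPA1A was at 2431 CPM in the cell at the 10th percentile, 5330.1 at the median and 10399 at the 90th percentile of the vehicle library, against 3467, 6988 and 12306 in the estradiol library. HSPA1A had no panel UMI in 13 of 4940 vehicle and 3 of 3367 estradiol cells, and its highest cell held 121 and 183 UMIs. DNAJB1 was at 369, 1371 and 2773 CPM at the same points with vehicle and at 452, 1444 and 2829 with estradiol. Both genes lay higher with estradiol at each point. As a ratio this was by more for HSPA1A than for DNAJB1 at all 3, and for both by most at the 10th percentile. DNAJB1 had a median of only 3 and 4 panel UMIs per cell, and its ratio from summed panel UMIs was 1.01 (0.986 to 1.03). Median panel UMIs per cell also differed, at 2426.5 and 2676, and the part of depth in these points was not tested. At 800 panel UMIs per cell the variance over the mean (the Fano factor, 1 for pure counting) was 2.13 and 2.08 for HSPA1A and 1.29 and 1.19 for DNAJB1. In the all-gene rows it was 1.55 and 1.39 for HSP90AA1, 1.17 and 1.25 for HSP90AB1, and between 1.00 and 1.09 for the other 8 genes. Each of these 8 had a mean under 1 UMI per thinned cell in both libraries.

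**Figure D2:**
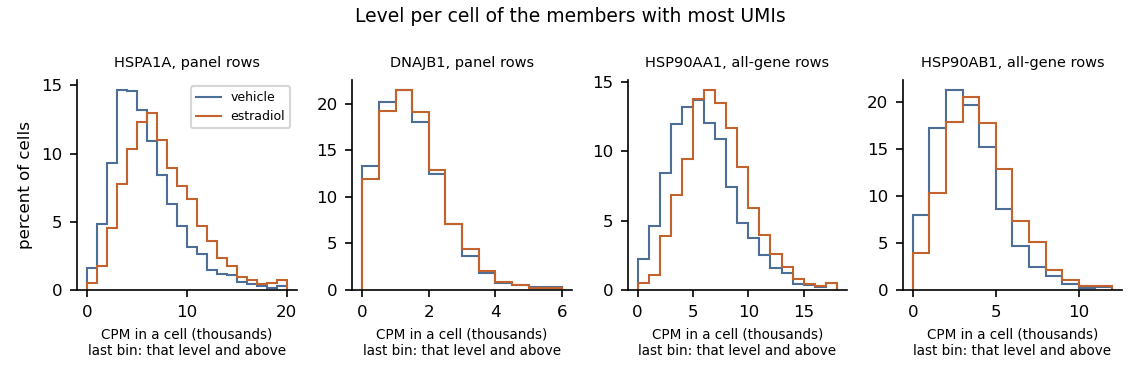
Percent of cells (vertical axis) in bins of level per cell (CPM, horizontal axis) for the members with most UMIs, vehicle in blue and estradiol in orange. HSPA1A and both Hsp90 genes lie farther right in the estradiol library, and the DNAJB1 outlines lie close together.

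Within a library the members varied together only weakly from cell to cell. Spearman correlations of thinned counts ranged from -0.02 to 0.11 over the 45 pairs in 3989 vehicle cells and from -0.03 to 0.11 in 3228 estradiol cells, highest for HSP90AA1 with HSP90AB1 in each. HSPA1A and DNAJB1 in the panel rows stood at 0.03 with vehicle and 0.04 with estradiol. All pairs share a library and thinned depth, and sparse counts hold such values near 0.

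The cell-cycle calls, taken from the authors' metadata, separated the members into several patterns. In S cells 8 of the 10 genes were higher than in G1 cells with vehicle (47.2% of 8263 genes were) and 7 of 10 with estradiol (49.1% of 7734). In G2M cells 4 of 10 were higher than in G1 with vehicle (49.5% of 9341 genes) and 3 of 10 with estradiol (47.7% of 8265). No member differed by 1.5-fold between phases in either direction, where with vehicle and estradiol 8.39% and 7.73% of genes were that much higher in S and 8.76% and 7.53% in G2M. The shares of genes that much lower were 4.89% and 3.66% in S and 5.33% and 4.89% in G2M. Together the 10 genes took 1.21%, 1.37% and 1.19% of UMIs in G1, S and G2M cells with vehicle and 1.48%, 1.58% and 1.44% with estradiol, so every phase of the estradiol library lay above every phase of the vehicle library.

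HSPA1A was highest in S and lowest in G2M. Its panel level was 6265 CPM in G1, 7831 in S and 4825 in G2M cells with vehicle, and 7741, 9048 and 6122 with estradiol. G2M cells stood at 0.770 (0.758 to 0.782) and 0.791 (0.777 to 0.805) of G1 cells, and S cells at 1.25 and 1.17. HSPA8 had the same S peak in the all-gene rows, at 365, 449.9 and 334 CPM with vehicle and 457, 611 and 443 with estradiol. HSPA1B was near 73.6, 73.4 and 60.6 CPM with vehicle and 81.9, 85.2 and 60.9 with estradiol, with wide intervals.

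DNAJB1 was lowest in G1 and highest in G2M, so that it shared with HSPA1A a higher level in S than in G1 but stood on the other side of G1 in G2M. Its panel level was 1388 CPM in G1, 1658 in S and 1835 in G2M cells with vehicle, and 1399, 1569.8 and 1842 with estradiol. G2M cells were 1.32-fold above G1 cells in each library (1.29 to 1.36 and 1.27 to 1.37). Cells called G2M also tended to hold more UMIs, and DNAJB1 was 1.36-fold and 1.31-fold higher in the deepest than in the shallowest of 3 equal groups of cells by panel UMIs. Within such groups, a split chosen after the data were seen, the G2M level of DNAJB1 stayed between 1.18-fold and 1.32-fold of G1 in all 6 combinations of library and depth. HSPA1A in G2M stayed between 0.746 and 0.830 of G1 in the same 6. DNAJA1 was highest in S, at 660 CPM against 560.0 in G1 and 596 in G2M with vehicle, and 785 against 718 and 696 with estradiol.

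The Hsp90 genes took different orders over the phases. HSP90AA1 was at 5547 CPM in G1, 6770.5 in S and 6161 in G2M cells with vehicle, and at 6690.2, 7432 and 7421 with estradiol. HSP90AB1 was at 3588, 3390.4 and 2903 CPM with vehicle and 4328, 4158 and 3505 with estradiol. G2M cells were thus higher than G1 cells for HSP90AA1, by 1.11-fold in each library, and at 0.809 and 0.810 of G1 cells for HSP90AB1. The HSP90AA1 share of the pair went from 60.7% in G1 to 68.0% in G2M cells with vehicle and from 60.7% to 67.9% with estradiol. In S cells this share was 66.6% (65.7 to 67.5) with vehicle and 64.1% (63.4 to 64.8) with estradiol, the 1 phase in which the libraries differed beyond counting error. HSPH1 was at 234, 239 and 264 CPM with vehicle and 298, 291 and 320.4 with estradiol, highest in G2M in each, although the estradiol ratio to G1 of 1.07 (0.961 to 1.20) spans 1.

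HSPD1 was highest in S and lowest in G2M, at 675, 793 and 609 CPM with vehicle and 1024, 1136 and 903 with estradiol. HSPE1 had this S peak with vehicle, at 432, 552 and 407 CPM, but not with estradiol, at 561, 535 and 489 CPM. S cells stood at 1.28 (1.16 to 1.41) of G1 cells for HSPE1 in the vehicle library and at 0.954 (0.871 to 1.04) in the estradiol library, and the difference between these ratios was not tested.

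**Figure D3:**
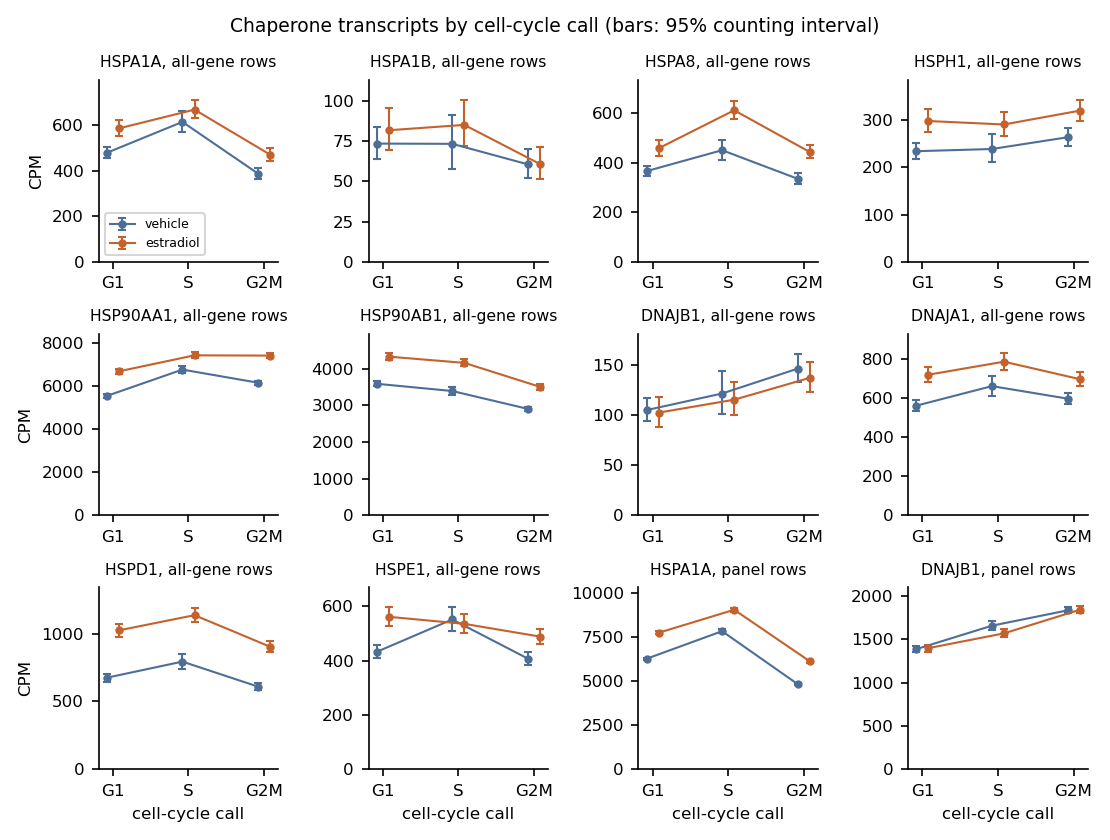
Level in CPM of each gene by cell-cycle call, with 95% counting intervals, vehicle in blue and estradiol in orange. HSPA1A peaks in S and DNAJB1 in G2M in both libraries, and the estradiol line lies above the vehicle line in every phase for HSPD1.

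The estradiol library had more S cells, so the treatment ratio was also taken within each phase. It was above 1 for 9 of 10 genes in G1 cells (49.1% of 8756 genes), 8 of 10 in S cells (50.7% of 6865) and 9 of 10 in G2M cells (44.8% of 8938). At least 1.5-fold higher was 1 member in G1, HSPD1, and none in S or G2M, where 5.09%, 3.19% and 3.14% of genes were, and none was 1.5-fold lower, where 5.69%, 3.82% and 5.4% were. HSPD1 stood at 1.52 (1.43 to 1.62), 1.43 (1.32 to 1.55) and 1.48 (1.39 to 1.58) in G1, S and G2M cells. HSP90AB1 was between 1.21 and 1.23 in the 3 phases, and HSPA8 within 1.25 and 1.36. The panel ratio of HSPA1A was 1.24, 1.16 and 1.27, lowest in S cells. DNAJB1 stood at 1.01, 0.947 and 1.00 in the panel rows. HSP90AA1 was at 1.21, 1.10 (1.07 to 1.13) and 1.20, so that in S cells its ratio lay below the 1.23 (1.18 to 1.28) of HSP90AB1. With each phase given equal weight, HSPD1 was at 1.475-fold.

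Across the authors' 8 clusters, which were built from the cells' own values and are described with no test, the members did not share a high cluster. Clusters 0 and 4 were mostly or wholly G2M cells, cluster 1 was richest in S cells (69.8% and 60.3%), clusters 2, 5 and 6 were mostly G1 cells, cluster 3 held the deepest cells with mixed phases, and cluster 7 mixed G1 and G2M calls. The 10 genes together took most of the UMIs in cluster 7, at 1.52% with vehicle and 1.73% with estradiol, and least in cluster 3 with vehicle (1.09%) and in cluster 6 with estradiol (1.36%). Of the 9 members with at least 500 UMIs in a library, 6 with vehicle and 3 with estradiol differed by at least 1.5-fold between their highest and lowest cluster, where 62.9% and 79.8% of genes did.

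HSPA1A and HSPA8 shared both ends of this order. Cluster 1 held the most HSPA1A in the panel rows, at 8523 and 9176 CPM, and cluster 7 the least, at 4149 and 4857, a span of 2.05-fold and 1.89-fold (67.6% and 72.3% of panel genes spanned at least 1.5-fold). HSPA8 went from 522 CPM in cluster 1 to 215 in cluster 7 with vehicle, and from 652 to 282 with estradiol. HSP90AA1 had cluster 7 at the top instead, at 8101 and 8542 CPM, and cluster 6 at the bottom, at 5139 and 6049. HSPH1 was also highest in cluster 7, at 313 and 365 CPM. DNAJB1 was highest in cluster 4, the cluster of G2M calls alone, at 2234 and 2374 CPM in the panel rows, and lowest in cluster 2 with vehicle at 1228 and in cluster 7 with estradiol at 1103. HSPD1 was highest in cluster 1 and lowest in cluster 4, at 835 and 548 CPM with vehicle and 1238 and 859 with estradiol.

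**Figure D4:**
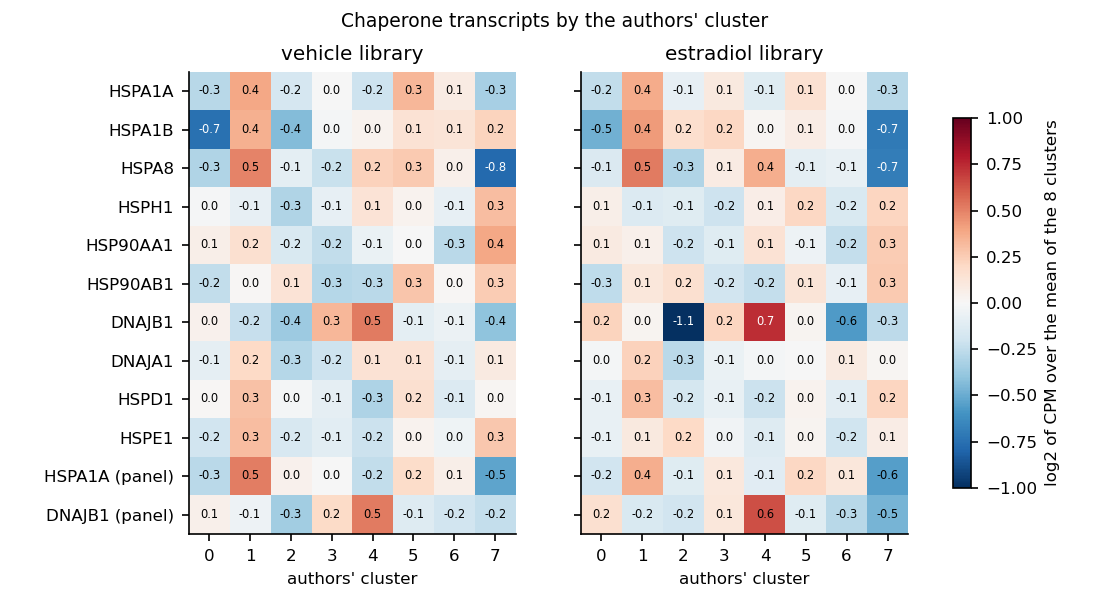
Log2 of each gene's level over its mean of the 8 clusters, per library, on a colour scale in log2 units that stops at 1 either way, with each value printed. HSPA8 and HSPA1A are high in cluster 1 and low in cluster 7, and DNAJB1 is high in cluster 4. The all-gene value of DNAJB1 in cluster 2 of the estradiol library rests on 3 UMIs in 82 cells.

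Within clusters, the estradiol library was higher in 8 of 8 clusters for HSPD1 (1.32-fold to 1.68-fold), HSP90AB1 (1.10 to 1.31), HSP90AA1 (1.05 to 1.33), DNAJA1 (1.05 to 1.34), HSPH1 (1.14 to 1.41), HSPE1 (1.00 to 1.49) and panel HSPA1A (1.06 to 1.31). The intervals lay above 1 in 8 clusters for HSP90AB1, 7 for HSPD1 and panel HSPA1A, 6 for HSP90AA1, 4 for DNAJA1 and HSPE1 and 2 for HSPH1. HSPA8 was higher in 7 of 8, with 0.960 in cluster 5. HSPA1B was higher in 4 of 8, from 0.519 to 1.499, with every interval spanning 1. Panel DNAJB1 was higher in 3 of 8, with a range of 0.832 to 1.08. Its intervals lay above 1 in 2 clusters and below 1 in 3. Clusters 2 and 6 held 82 and 79 estradiol cells, against 1150 and 626 vehicle cells, so their ratios are the least precise. These counts of clusters were not made over all genes, so they cannot be set against them.

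Over the 16 combinations of library and cluster, the levels of some members ran together. As a description over 16 points that share libraries and cells, the Pearson correlation of log2(CPM + 1) was 0.77 for HSPA1A with HSPA8, 0.76 for HSPH1 with HSP90AA1 and for HSP90AB1 with HSPE1, 0.74 for HSPD1 with HSPE1, 0.48 for HSP90AA1 with HSP90AB1 and -0.66 for HSP90AB1 with DNAJB1. The 2 genes most like each member were taken among those with at least 500 UMIs, 4307 in the all-gene rows and 812 in the panel rows. They are the highest values of many over 16 points. Points of both libraries are included, so differences between the libraries enter these values, and their part was not tested. For HSP90AA1 they were CCT5, a subunit of the cytosolic chaperonin TRiC (0.94), and ALG8 (0.88). For HSPD1 they were NUDC, an Hsp90 co-chaperone (0.90), and PFDN6, a prefoldin subunit (0.88). DNAJA1 was most like GDI2 (0.86) and HSPA5, the Hsp70 of the endoplasmic reticulum (0.84). HSPH1 was most like LDHA (0.87) and PTP4A2 (0.86), HSPE1 like DDX3X (0.88) and SSB (0.80), HSP90AB1 like SLC9A3R1 (0.87) and SSB (0.86), and HSPA8 like CDC23 (0.79) and NUBP2 (0.78). In the panel rows DNAJB1 was most like MDM2 (0.91) and DAXX (0.89), and HSPA1A like MSH3 (0.84) and DLL3 (0.81).

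The wider chaperone network was given by 10 lists of genes that hold no member of the 10. Of 88 listed genes with at least 50 UMIs, 71 had a ratio above 1, 10 stood 1.5-fold or more above vehicle and 0 as far below it, where the shares over all genes were 45.6%, 3.4% and 5.74%. Their median log2 ratio was 0.26, and the counts of each list below can be read against the same shares. All 13 Hsp90 co-chaperones were above 1, with a median of 0.36. FKBP4, the immunophilin FKBP52 of steroid receptor complexes, was at 397 and 729 CPM, 1.84-fold higher (1.75 to 1.93), and STIP1, which links Hsp70 to Hsp90, at 96.3 and 140.0 CPM, 1.45-fold higher. CHORDC1 was 1.497-fold and NUDC 1.46-fold higher. In the list of endoplasmic reticulum chaperones 11 of 12 were above 1 and 5 at least 1.5-fold higher, with a median of 0.47. HSP90B1 was among these 5 at 1.501-fold, but stood at 1.38-fold (1.36 to 1.40) in the panel rows, where CALR stood at 1.54-fold. HYOU1 was at 16.6 and 33.7 CPM (2.03-fold, 1.603 to 2.57), HSPA5 at 121 and 218 (1.803-fold), SDF2L1 at 99.4 and 174 (1.75-fold) and CALR at 415 and 637 (1.54-fold).

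In the list of TRiC and prefoldin subunits, which fold actin and tubulin among other clients, 11 of 14 were above 1, with a median of 0.29. PFDN6 was 1.58-fold higher, CCT5 1.35-fold, CCT4 1.33-fold and CCT2 1.32-fold. Other mitochondrial chaperones and proteases had 7 of 11 above 1 and a median of 0.20, with CLPB at 1.599-fold and TRAP1, the mitochondrial Hsp90, at 1.54-fold. Other Hsp70 and Hsp110 genes had 6 of 6 above 1, with HSPA4L at 1.65-fold and HSPA4 at 1.25-fold, and a median of 0.22. Not every interval of these 6 excluded 1, as for HSPA2 at 1.01 (0.574 to 1.77) and HSPA12A at 1.08 (0.814 to 1.43). The panel rows measured 2 genes of this list, and 0 of 2 were above 1. HSPA2 stood at 0.870 (0.774 to 0.977) there and HSPA6 at 0.882 (0.646 to 1.20). HSPB1, the small heat shock protein HSP27, was at 990.1 and 1446 CPM in the all-gene rows (1.46-fold) and 1.40-fold higher in the panel rows, and the 3 measured genes of its list had a median of 0.50.

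The remaining lists had medians between 0.03 and 0.19. The J-domain list had 7 of 12 above 1 and a median of 0.05, with DNAJC9 at 1.42-fold and DNAJB2 at 0.672 (0.524 to 0.859). HSF1 was at 75.0 and 77.0 CPM, a ratio of 1.03 (0.903 to 1.17), and HSF2 at 1.08 (0.836 to 1.39). The list of heat shock factors and their feedback had 3 of 3 above 1, with a median of 0.05. Other known heat shock factor targets had 4 of 5 above 1 and a median of 0.03, with MRPL18 at 1.23-fold and ZFAND2A at 0.792. Hsp70 exchange factors and adaptors had 6 of 9 above 1 and a median of 0.19, with BAG3, a stress-inducible co-chaperone, at 1.22-fold and HSPBP1 at 1.38-fold.

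Immediate-early genes, known to respond within minutes to growth factors, stress and cell handling, were listed beside these. Of 14 measured in the all-gene rows, 7 were above 1 (45.6% of all genes). With estradiol 4 were at least 1.5-fold lower (5.74%): FOS (0.488), JUN (0.641), ATF3 (0.401) and DUSP1 (0.380). MYC stood in the other direction, at 1.41-fold in the all-gene rows and 1.597-fold in the panel rows. Of 4 measured in the panel rows, 1 was above 1 (36.7% of panel genes), which was MYC. FOS (0.481) and JUN (0.645) were at least 1.5-fold lower there (11.7% of panel genes). NR4A1 was at 1.21 (0.809 to 1.81) in the all-gene rows but at 0.841 (0.770 to 0.917) in the panel rows. The median log2 ratio of the list was -0.05 in the all-gene rows and -0.44 in the panel rows. The part of these genes in the chaperone ratios was not tested.

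**Figure D5:**
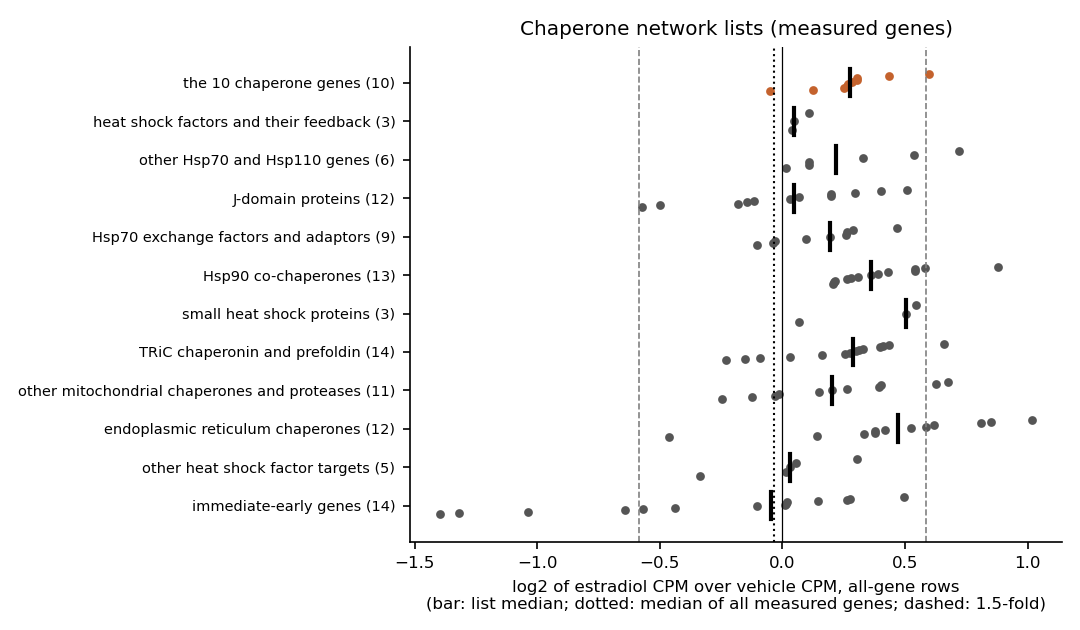
Log2 of estradiol level over vehicle level (horizontal axis) for the 10 chaperone genes and for each measured gene of the network lists, in the all-gene rows. Black bars are list medians, the dotted line is the median of all measured genes at -0.03 and dashed lines mark 1.5-fold either way. The medians of the Hsp90 co-chaperone, small heat shock protein and endoplasmic reticulum lists lie at 0.36, 0.50 and 0.47.

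Depth and mitochondrial percent moved with some members inside a library. In the deepest over the shallowest of the 3 groups of cells by all-gene UMIs, HSP90AB1 was at 0.836 and 0.821, DNAJB1 at 1.40 and 1.34, and HSP90AA1 at 0.996 and 0.983 (vehicle and estradiol). In the highest over the lowest of 3 equal groups by mitochondrial percent, HSPA8 was at 0.853 and 0.788 and DNAJA1 at 0.807 and 0.860, while panel HSPA1A was at 1.11 and 1.05. For the 2 genes in both kinds of row, panel UMIs were 24.5 times the all-gene UMIs for HSPA1A and 25.2 times for DNAJB1. Of the cells with an all-gene UMI, 4074 of 4074 and 1334 of 1338 also had a panel UMI. Most cells had a panel UMI in any case: 99.7% of vehicle and 99.9% of estradiol cells for HSPA1A, and 91.3% and 94.2% for DNAJB1. This overlap therefore cannot show whether the 2 kinds of row agree cell by cell.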

How the data were processed

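Single-cell mRNA of vehicle- and estradiol-treated MDA MB 134VI cells was analysed from the deposited matrix and cell metadata. The matrix holds natural log values made by the authors, which equal ln(1 + 10000 × UMIs / UMIs of the cell) within each kind of row. Using the deposited count of UMIs per cell, whole UMIs were recovered for 100% of values above 0 within a tolerance of 1e-06, and their sums equalled the deposited totals in 100% of cells. The mitochondrial percent, cell-cycle calls and clusters were used as deposited. Per the submitters' processing notes, Cell Ranger 3.0.2 and the build hg38 were among the tools and references named, while the role of each, and the origin of the all-gene rows, are not given in these sources.

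UMIs were summed over the cells of each library, phase or cluster and divided by the total of that kind of row. Cells of 1 library are not replicates, so no p-value was computed. Genes needed at least 50 UMIs over both libraries and clusters at least 50 cells. The likest genes were the 2 with the highest Pearson correlation over library and cluster, among genes with at least 500 UMIs. A gene counted as 1.5-fold apart only where the interval of its ratio also excluded 1. Intervals were checked on simulated Poisson counts, the model they assume, so the check does not cover variation beyond counting error. No doublet caller was run and no deposited cell was removed. Genes named from a network list were among the 4 with the largest log2 ratio in size, up or down, in 1 of the kinds of row. For some lists only part of these 4 were named. The members, gene lists and tests were chosen with earlier results of these data known. Alternatives changed the scaling, the cells kept, the weight of phases and the minimum of UMIs. Gene coordinates and start sites came from RefSeq on GRCh38.p14. Python 3.11.15, numpy 2.4.6, scipy 1.17.1 and pandas 2.3.3 were used.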

Additional observations from a re-analysis of the deposited data

Results flagged for a closer look

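For HSPE1 the difference between the libraries had opposite signs in different phases. Its log2 ratio of estradiol to vehicle was 0.38 in G1 cells and 0.26 in G2M cells and -0.043 in S cells, where its interval of -0.19 to 0.11 spans 0. The difference between phases was not tested.

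For DNAJB1 in the panel rows the sign also differed. The log2 ratio was 0.012 in G1 cells, -0.079 in S cells and 0.0051 in G2M cells, and the intervals in G1 and G2M span 0. The difference between phases was not tested either.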

How the results depend on the processing

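No paired analysis was possible because each treatment had 1 mRNA library. The count of members with a ratio above 1 was 9 or 10 under all 7 alternatives, and their median log2 ratio stayed between 0.25 and 0.30. The count at least 1.5-fold higher went from 1 to 0 with the total without the 10 most abundant genes and with equal weight to each phase, since HSPD1 lies at the threshold. The count of listed network genes at least 1.5-fold lower went from 0 to 1 with that total, and the counts higher were 9 to 11. Over the members' log2 ratios between libraries, HSPD1 ranged from 0.56 to 0.66, panel HSPA1A from 0.28 to 0.44 and panel DNAJB1 from -0.05, its all-gene value, to 0.11. Within 3 equal groups of cells by UMIs, chosen after seeing the data, 15 of 144 phase ratios changed sign, 0 of them in the panel rows. For 12 of the 15 the interval over all cells already spanned 1. The other 3 were log2 ratios of G2M to G1 cells, for HSPH1 in the middle group of vehicle cells (-0.028), for HSPA8 in the group of vehicle cells with most UMIs (0.065) and for HSPE1 in the group of estradiol cells with fewest (0.064). The cause was not tested. Members at low counts, HSPA1B and all-gene DNAJB1 above all, allow only wide intervals within phases and clusters.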
